A study of Mus musculus with 5 samples.

Results

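The sterol and fatty acid synthesis genes described here are 36 genes chosen by symbol from the 21983 genes of a count table of mouse microglia, the resident macrophages of the brain. They comprise 5 regulators of the pathway, 9 genes of the mevalonate and squalene steps, 10 of the later sterol steps and sterol transport, 5 that supply acetyl-CoA or NADPH or build fatty acids, and 7 that elongate or desaturate them. Counts sufficed to test 35 of the 36. The exception was Fdps, farnesyl diphosphate synthase, which had 2 counts in all 5 libraries together. No member passed the edgeR test between genotypes at an adjusted p under 0.05. Of all 12543 genes tested, 0 passed it, so this is not particular to the members.

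RNA was sequenced from primary microglia of mouse brain in 5 libraries. In 2 of them the genotype was Cx3cr1CreERT2 Ythdf2fl/fl, and in 3 it was Ythdf2fl/fl, so both groups carried the floxed Ythdf2 allele and only the first carried the tamoxifen-inducible Cre recombinase at the microglial chemokine receptor gene Cx3cr1. The groups therefore differ in Cre as well as in the intended deletion, and these cannot be told apart. Tamoxifen dosing, age, sex and the number of animals behind a library were not stated in any source at hand. Ythdf2 encodes a cytoplasmic reader of methyladenosine in mRNA that promotes decay of the transcripts it binds, and the study asked which processes differ in microglia without it.

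Animal cells make cholesterol from acetyl-CoA through mevalonate, squalene and lanosterol, and make palmitate from the same acetyl-CoA, which is then elongated and desaturated. Both branches are under the SREBP transcription factors, which are held in the endoplasmic reticulum with their escort SCAP by INSIG proteins when sterol is plentiful, and are carried to the Golgi and cleaved when sterol is scarce. SREBP2 acts mainly on sterol genes and SREBP1 mainly on fatty acid genes. In the brain, cholesterol is made locally, and the myelin-forming oligodendrocytes are known for high lipid synthesis.

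Total counts per library ran from 13947500 to 19577217, with 13991 to 14673 genes detected. Levels are given as CPM, the count scaled to a common library size, with edgeR's TMM factors correcting for library composition. In the labelled knockout libraries Ythdf2 was at 103 and 127 CPM, beside 57.0, 69.2 and 68.8 CPM in the controls, so the targeted gene was not lower (fitted log2 fold change 0.83, SE 0.207, adjusted p = 0.431). A count over the whole gene includes exons outside the deleted part, and 2 processed pseudogenes hold near-identical stretches of it. The libraries are therefore called labelled knockout 1 and 2 throughout. Cx3cr1, whose locus carries the Cre, was at 337 and 97.7 CPM in the labelled knockouts and at 682, 992 and 681 CPM in the controls (adjusted p = 0.575). The 12 microglial markers sum to 3495 and 4260 CPM in the labelled knockouts and to 5758 to 7083 CPM in the controls. Oligodendrocyte markers were also present in every library, 13 of 13 tested and none at 0, with summed levels of 13600 and 4950 CPM in labelled knockouts 1 and 2, and of 11207, 10163 and 1390 CPM in controls 1, 2 and 3. Markers of T, B and NK cells and of red cells were too low to test in all cases.

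Promoter sequence was at hand for 29 of the 36 genes in RefSeq's table for build GRCm38.p6, which holds 250 bases before to 50 bases after each annotated start. The sterol regulatory element was searched as TCACNCCAC, the NF-Y box as CCAAT and the GC box as GGGCGG, on both strands and with overlaps between motifs allowed. These motifs are known to be bound by SREBPs and by their usual partners NF-Y and Sp1. The 6 windows below are shown because 5 belong to genes that were at least 2-fold apart inside both groups and the other, Insig1, to a regulator that was not. Each is 150 bases long, runs 5′ to 3′ on the gene's strand and lies before the first exon that GENCODE M21 or RefSeq annotates for that gene. The windows are chr13:119690201-119690350 on the plus strand for Hmgcs1, chr1:169969242-169969391 on the minus strand for Hsd17b7, chr5:4104747-4104896 on the minus strand for Cyp51, chr5:28071213-28071362 on the plus strand for Insig1, chr11:120824548-120824697 on the minus strand for Fasn and chr3:129532205-129532354 on the plus strand for Elovl6. Capitals mark matches to any of the 3 motifs on either strand.
Hmgcs1: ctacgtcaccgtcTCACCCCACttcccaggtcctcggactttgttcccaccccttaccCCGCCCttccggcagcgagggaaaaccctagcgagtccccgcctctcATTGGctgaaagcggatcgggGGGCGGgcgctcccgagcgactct
Hsd17b7: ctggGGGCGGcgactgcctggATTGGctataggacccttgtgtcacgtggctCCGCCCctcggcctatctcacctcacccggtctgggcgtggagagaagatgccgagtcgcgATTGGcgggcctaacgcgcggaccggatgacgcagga
Cyp51: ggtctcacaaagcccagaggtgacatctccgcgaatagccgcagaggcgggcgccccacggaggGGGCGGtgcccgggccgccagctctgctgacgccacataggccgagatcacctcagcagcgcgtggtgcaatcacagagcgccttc
Insig1: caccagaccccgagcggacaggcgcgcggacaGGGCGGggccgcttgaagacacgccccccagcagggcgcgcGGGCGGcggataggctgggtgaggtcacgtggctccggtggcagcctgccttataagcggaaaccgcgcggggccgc
Fasn: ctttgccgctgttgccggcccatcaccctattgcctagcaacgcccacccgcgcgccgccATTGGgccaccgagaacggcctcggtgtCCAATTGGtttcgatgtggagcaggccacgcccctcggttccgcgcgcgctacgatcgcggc
Elovl6: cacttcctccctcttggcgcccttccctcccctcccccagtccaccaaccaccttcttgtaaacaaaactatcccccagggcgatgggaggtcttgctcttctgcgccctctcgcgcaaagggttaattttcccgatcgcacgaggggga
In the Hmgcs1 window the sterol regulatory element begins 137 bases before the RefSeq start, with GC boxes at 92 and 24 bases and an NF-Y box at 45 bases. The Hsd17b7 window holds NF-Y boxes 165 and 73 bases before the start and GC boxes at 182 and 134 bases. The Fasn window holds 3 NF-Y boxes, at 90, 62 and 59 bases, the last 2 overlapping each other on opposite strands. Only GC boxes were found in the Cyp51 and Insig1 windows, which end 49 bases before the start. The whole promoters of these genes, from 250 bases before to 50 after the start, also hold an NF-Y box. None of the 3 motifs was found in the Elovl6 window or in its whole promoter. The window of Elovl6 overlaps the antisense gene Gm35986.

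Over whole promoters, the full element was found in 1 of the 29 genes, Hmgcs1 (3.45%, exact 95% interval 0.087% to 17.8%), against 1.44% of all 27025 genes with a promoter in the table. With its first base dropped it was found in 3, Insig1, Acat2 and Hmgcs1 (10.3% against 7.12%). With its seventh base left free it was found in 2, Hmgcs1 and Nsdhl (6.90% against 3.15%). The NF-Y box was found in 24 of the 29 (82.8%), against 41.1% of all genes with a promoter and 42.8% of those with enough counts to be tested. The GC box was also found in 24 (82.8%), against 38.2% of all genes and 68.7% of those tested. These counts describe letters in a window and say nothing of whether a factor is bound there.

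The 5 regulators lay at similar levels in both groups, and none differed beyond the spread of the libraries. Srebf1, which encodes SREBP1, was at 75.5 and 97.3 CPM in the labelled knockouts and at 79.4, 76.0 and 97.7 CPM in the controls (fitted log2 fold change 0.03, SE 0.226, adjusted p = 0.986). Srebf2, which encodes SREBP2, was at 121 and 81.5 CPM beside 122, 142 and 112 CPM (fitted log2 fold change -0.31, SE 0.251, adjusted p = 0.922). The groups overlapped for both genes. Scap, the escort, was at 147 and 94.1 CPM beside 88.4, 108 and 93.7 CPM (fitted log2 fold change 0.32, SE 0.256), with labelled knockout 1 above the other 4 libraries.

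Insig1, itself a classic SREBP target that feeds back on the pathway, was at 31.0 and 47.2 CPM in the labelled knockouts and at 44.9, 44.9 and 35.2 CPM in the controls (fitted log2 fold change -0.09, SE 0.268). Insig2, its paralogue, was at 15.4 and 28.3 CPM beside 23.1, 20.1 and 26.8 CPM (fitted log2 fold change -0.09, SE 0.333). Both INSIG genes were lowest in labelled knockout 1 and highest in labelled knockout 2. Per kilobase of exon, Srebf2 was the most abundant regulator, at 16.1 CPM per kb, followed by Srebf1 at 15.1 and Scap at 14.3. Among the other members, log2 CPM over the 5 libraries followed that of Srebf1 most closely for Insig2 (Pearson r 0.86), Pmvk (0.82) and Tm7sf2 (0.71). For Srebf2 the closest were Lss (0.90), Nsdhl (0.89) and Elovl5 (0.89). These are descriptions over 5 libraries that differ in depth and in cell type marker levels. The part of those differences in the correlations was not tested.

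Of the 8 tested genes of the mevalonate and squalene steps, 6 had a log2 fold change below 0 and 2 above, with a median of -0.34 beside 0.01 over all genes tested, and none passed the test. Hmgcs1, which makes HMG-CoA for the mevalonate branch, was the most abundant per length at 24.5 CPM per kb. Its level was 120 and 56.5 CPM in the labelled knockouts and 148, 203 and 36.7 CPM in the controls. Control 3 was the lowest of all 5 libraries and the other controls the highest, so the groups overlapped (fitted log2 fold change -0.55, SE 0.720, adjusted p = 0.931). Sqle, squalene epoxidase, had the same order of libraries, at 37.2 and 17.5 CPM beside 42.1, 58.9 and 15.8 CPM (fitted log2 fold change -0.51, SE 0.606, adjusted p = 0.926). Mvd, mevalonate diphosphate decarboxylase, did not follow that order, being highest in labelled knockout 2, at 9.28 and 20.8 CPM beside 13.7, 10.7 and 6.84 CPM (fitted log2 fold change 0.53, SE 0.471). For Hmgcs1, Sqle and Mvd alike the range inside a group was wider than the difference between group means.

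The other members of this branch were low or moderate in level. Fdft1, squalene synthase, was between 9.66 and 28.6 CPM (fitted log2 fold change -0.49, SE 0.524). Of its exons, 774 bases overlap the cathepsin gene Ctsb on the other strand, and because the strand setting of the counting is not given here, reads of the 2 genes may not have been separated. Idi1, isopentenyl diphosphate isomerase, lay between 1.41 and 3.71 CPM (fitted log2 fold change -0.48, SE 0.509). The kinases Mvk and Pmvk, which phosphorylate mevalonate in turn, lay between 8.74 and 15.2 CPM. Their log2 fold changes were 0.12 (SE 0.281) and -0.19 (SE 0.307). Acat2, the cytosolic thiolase, lay between 6.81 and 12.6 CPM and its fitted log2 fold change was -0.02 (SE 0.390). Acat2, Idi1, Fdft1 and Fdps each have a stretch of at least 400 bases with at least 95% identity elsewhere among GENCODE's transcripts, so their counts are uncertain.

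Of the 10 genes of the sterol steps and transport, 7 had a log2 fold change below 0 and 3 above, with a median of -0.15. Msmo1, the methylsterol monooxygenase that starts removal of the methyl groups at carbon 4, was the only one of the 35 members with both labelled knockouts below all controls. It was at 34.6 and 30.2 CPM in the labelled knockouts and at 53.8, 60.1 and 41.8 CPM in the controls, or 32.4 ± 3.12 CPM (SD, n = 2) against 51.9 ± 9.33 CPM (SD, n = 3). The log2 fold change was -0.68 (SE 0.242), with an edgeR p of 0.031 before and 0.677 after adjustment over all genes. Msmo1 lies on the minus strand of chromosome 8, 64718139 to 64733792 in GRCm38. Leaving out any single library kept its log2 fold change between -0.81 and -0.56. Across the 12543 genes tested, both labelled knockouts were below all controls for 10.4%, and an unadjusted p under 0.05 was found for 6.68%.

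Dhcr7, the reductase of 7-dehydrocholesterol at the last step, was at 36.2 and 35.3 CPM in the labelled knockouts and at 33.1, 35.1 and 26.9 CPM in the controls. The groups did not overlap, but labelled knockout 2 and control 2 differed by less than 1 CPM (fitted log2 fold change 0.17, SE 0.219, adjusted p = 0.929). Scaled by library totals alone, labelled knockout 2 was at 33.4 CPM and control 2 at 35.2 CPM, and the groups overlapped. Hsd17b7, the ketosteroid reductase that completes demethylation at carbon 4, was the most abundant gene of these steps per length, at 15.9 CPM per kb. It was at 103 and 25.5 CPM in the labelled knockouts and at 127, 132 and 19.1 CPM in the controls. Labelled knockout 2 and control 3 were thus far below the other 3 libraries, and the comparison of the groups was imprecise (fitted log2 fold change -0.52, SE 0.920, adjusted p = 0.941). Without labelled knockout 1 the value was -1.89, and without labelled knockout 2 it was 0.16.

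Cyp51, the lanosterol demethylase, was again low in labelled knockout 2 and control 3, between 15.996 CPM in labelled knockout 2 and 42.1 CPM in control 2 (fitted log2 fold change -0.41, SE 0.466). Sc5d, the sterol C5 desaturase, was between 15.1 and 32.4 CPM (fitted log2 fold change -0.35, SE 0.368). Lss, lanosterol synthase, was nearly level at 22.0 to 30.5 CPM (fitted log2 fold change -0.07, SE 0.249). Nsdhl and Ebp, the sterol dehydrogenase and isomerase encoded on the X chromosome, lay between 8.86 and 12.5 CPM and between 23.5 and 33.6 CPM. Their log2 fold changes were -0.16 (SE 0.296) and 0.13 (SE 0.246). Tm7sf2, a sterol reductase, was between 4.94 and 7.89 CPM (fitted log2 fold change 0.21, SE 0.358) and shares 532 exon bases with Vps51 on the same strand. Stard4, which carries cholesterol between membranes, was between 5.51 and 11.1 CPM (fitted log2 fold change -0.14, SE 0.446).

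The 5 genes of acetyl-CoA, NADPH and fatty acid synthesis had a median log2 fold change of 0.22, with 3 above 0 and 2 below, and none passed the test. Acly, which releases acetyl-CoA from citrate in the cytosol, was the most abundant per length at 50.2 CPM per kb. It was at 273 and 247 CPM in the labelled knockouts and at 282, 317 and 205 CPM in the controls (fitted log2 fold change -0.04, SE 0.258). Fasn, the fatty acid synthase itself, was at 345 and 98.8 CPM in the labelled knockouts and at 132, 156 and 70.5 CPM in the controls. Its high mean in the labelled knockouts came from labelled knockout 1, which was above the other 4 libraries, whereas labelled knockout 2 lay among the controls. The group values were 222 ± 174 CPM (SD, n = 2) and 119 ± 44.0 CPM (SD, n = 3). The log2 fold change was 0.89 (SE 0.577, adjusted p = 0.884) and turned to -0.30 without labelled knockout 1.

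Acaca, acetyl-CoA carboxylase, which makes malonyl-CoA for the synthase, was at 117 and 40.6 CPM in the labelled knockouts and at 61.8, 88.8 and 27.8 CPM in the controls (fitted log2 fold change 0.40, SE 0.607). A processed pseudogene, Gm5182, holds a near-identical copy of 6118 bases of it. Me1, malic enzyme, a cytosolic source of NADPH, was at 71.9 and 21.5 CPM beside 45.6, 52.5 and 22.3 CPM (fitted log2 fold change 0.22, SE 0.586). Both genes were highest in labelled knockout 1, and both were lower in labelled knockout 2 and control 3 than in controls 1 and 2. Without labelled knockout 1 their log2 fold changes were -0.58 and -0.93. Acss2, which makes acetyl-CoA from acetate, lay between 9.73 and 19.8 CPM (fitted log2 fold change -0.16, SE 0.427).

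Elongation and desaturation had the highest median of the 5 roles, 0.58, with 6 of 7 log2 fold changes above 0, and again no gene passed the test. Fads1 and Fads2, the delta-5 and delta-6 desaturases of polyunsaturated fatty acids, were the members of this role with both labelled knockouts above all controls. Fads2 was at 14.8 and 4.54 CPM in the labelled knockouts and at 2.89, 2.22 and 0.892 CPM in the controls, or 9.65 ± 7.22 CPM (SD, n = 2) against 2.0 ± 1.02 CPM (SD, n = 3). Its log2 fold change, 2.25 (SE 0.685), was the largest of the 35, with an edgeR p of 0.018 before and 0.575 after adjustment, and a DESeq2 adjusted p of 0.109. Labelled knockout 1 was 3.25 times labelled knockout 2, and without labelled knockout 1 the log2 fold change was 1.13.

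Fads1 was at 134 and 111 CPM in the labelled knockouts and at 68.2, 93.3 and 83.5 CPM in the controls, or 122 ± 16.6 CPM (SD, n = 2) against 81.7 ± 12.7 CPM (SD, n = 3). The log2 fold change was 0.58 (SE 0.224), with an edgeR p of 0.041 before and 0.704 after adjustment. Unlike Fads2, it was not low in control 3, and leaving out 1 library kept its value between 0.41 and 0.71. Fads1 and Fads2 are neighbours on chromosome 19, at 10182888 to 10196877 on the plus strand and at 10062765 to 10101746 on the minus strand (GRCm38). Fads3, the further gene of that cluster and not 1 of the 36, was at 8.39 and 4.22 CPM beside 2.58, 2.66 and 2.38 CPM (fitted log2 fold change 1.30, SE 0.447, adjusted p = 0.658). For each of the 3 desaturase genes, therefore, the groups did not overlap. Across all genes tested, both labelled knockouts were above all controls for 9.85%, and among the 35 members for 3, or 8.57%.

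Scd2, the stearoyl-CoA desaturase of brain that introduces the first double bond into saturated acids, was the most abundant member of all, at 153 CPM per kb. It was at 1585 and 425 CPM in the labelled knockouts and at 914, 1093 and 163 CPM in the controls, a range of 9.72-fold. The group values were 1005 ± 821 CPM (SD, n = 2) and 723 ± 493 CPM (SD, n = 3), and the difference was far inside the spread (fitted log2 fold change 0.47, SE 0.876, adjusted p = 0.943). Scd1, its neighbour on chromosome 19, was at 30.8 and 7.51 CPM in the labelled knockouts and at 10.9, 10.9 and 4.16 CPM in the controls (fitted log2 fold change 1.14, SE 0.688, adjusted p = 0.876). The 2 genes share 623 bases at over 95% identity. Elovl6, which elongates palmitate to stearate, was at 13.8 and 4.16 CPM beside 4.09, 7.22 and 1.78 CPM (fitted log2 fold change 1.03, SE 0.726). For all 3 genes labelled knockout 1 was the highest library and control 3 the lowest. Without labelled knockout 1 the log2 fold changes were -0.80 for Scd2, -0.24 for Scd1 and -0.11 for Elovl6.

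The elongases Elovl1, which acts on very long saturated acids, and Elovl5, which acts on polyunsaturated ones, were by contrast among the most even members. Elovl1 lay between 112 and 147 CPM (fitted log2 fold change 0.00466, SE 0.206), at 47.6 CPM per kb. Elovl5 lay between 61.1 and 75.3 CPM (fitted log2 fold change -0.10, SE 0.197), at 19.3 CPM per kb.

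**Figure D1:**
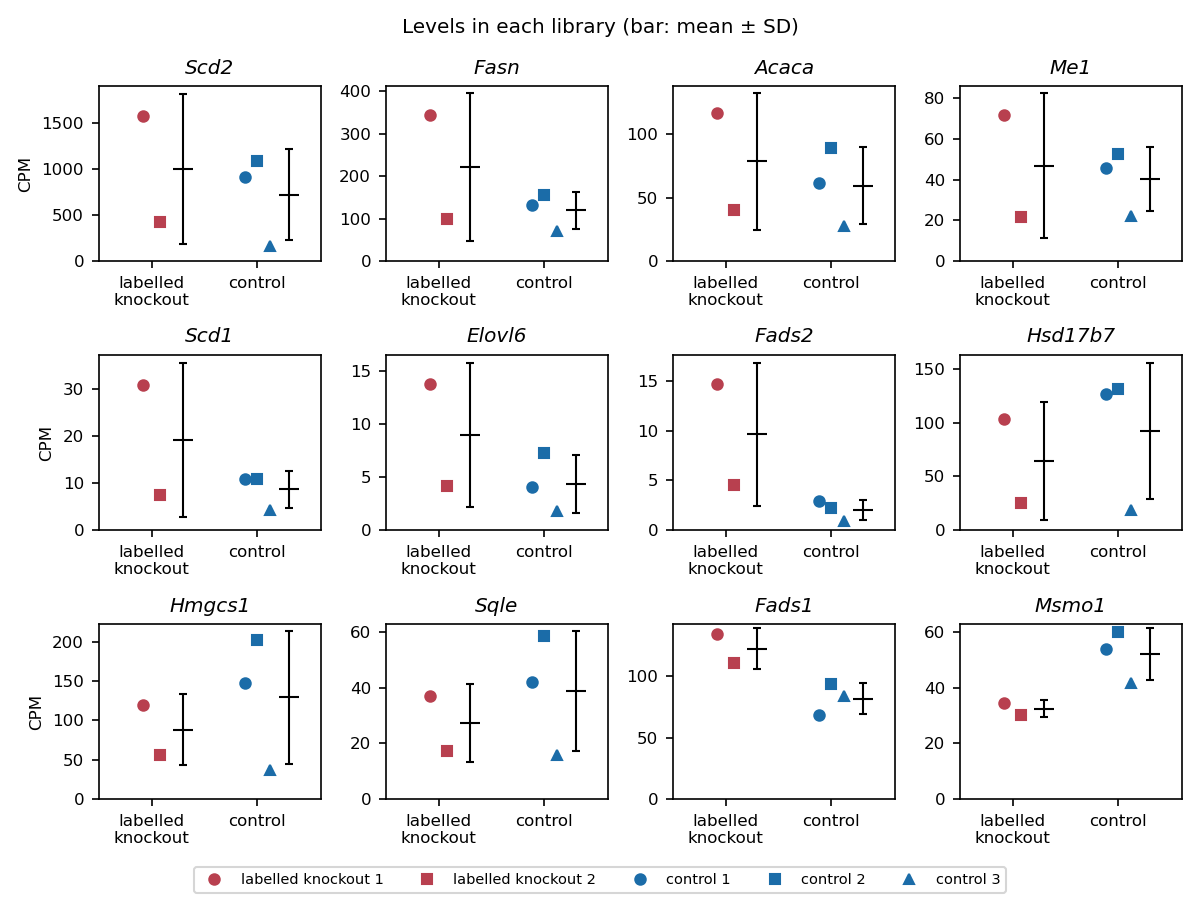
CPM of 12 members in each library, with labelled knockout (red, n = 2) and control (blue, n = 3) and bars for the mean ± SD. Labelled knockout 1 stands above the other libraries for Scd2, Fasn, Acaca, Me1, Scd1, Elovl6, Fads2 and Fads1. For Fads2, Fads1 and Msmo1 the groups do not overlap.

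Over all 35 genes tested, 16 log2 fold changes were above 0 and 19 below, with a median of -0.04. None passed edgeR's quasi-likelihood test at an adjusted p under 0.05, where 0% of all genes passed. With DESeq2, 1.95% of all genes passed (244) and again 0 members. An unadjusted edgeR p under 0.05 was found for 3 members, Msmo1, Fads1 and Fads2, which is 8.57% beside 6.68% of all genes. Neither share of non-overlapping members, 8.57% above and 2.86% below, exceeded that of all genes. With 3 residual degrees of freedom, edgeR called no difference of any size, although log2 fold changes over all genes ran from -7.39 to 8.95. The absence of calls therefore does not show that the members were unchanged.

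**Figure D2:**
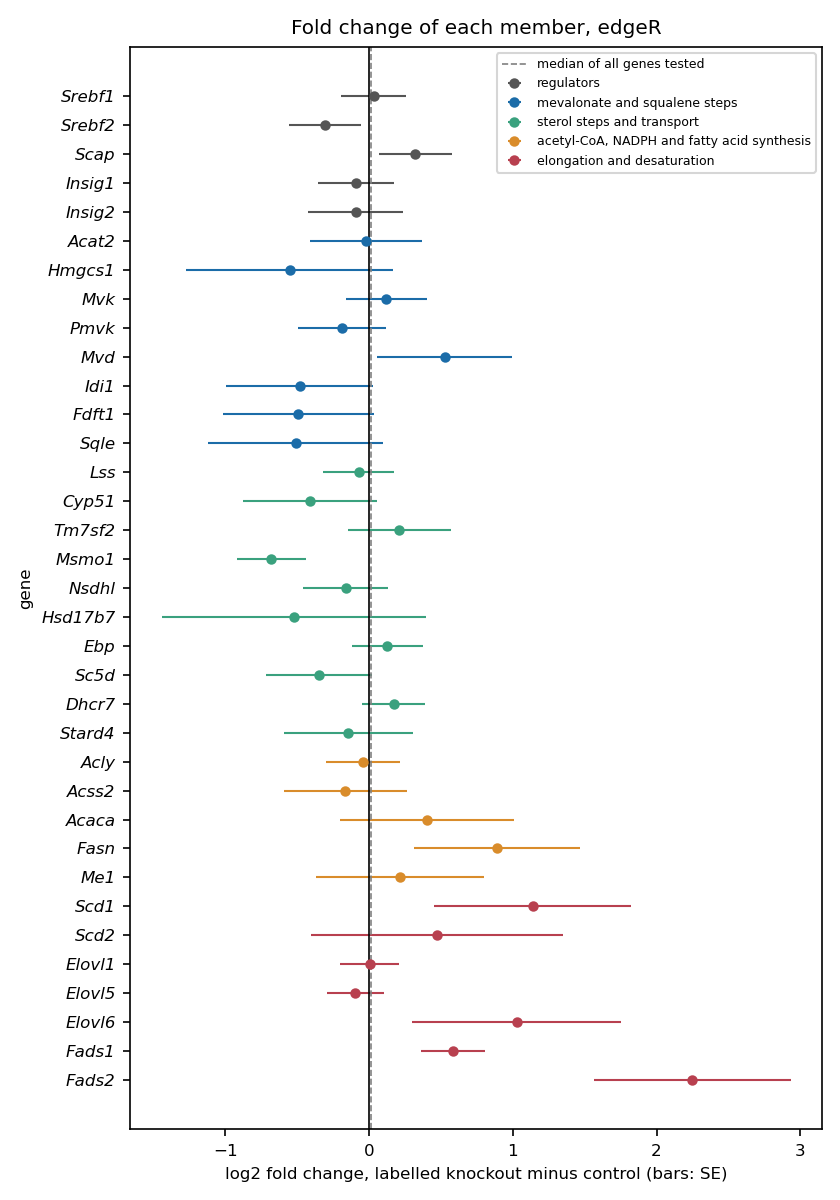
The log2 fold change of each of the 35 genes tested, labelled knockout minus control, with bars for the standard error and colours for the role. Most bars cross 0, the longest belong to Hsd17b7, Scd2, Elovl6 and Hmgcs1, and Fads2 lies farthest to the right at 2.25.

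Wide differences among these genes also lay inside the groups. Over all 5 libraries, whichever their group, the highest was at least 3 times the lowest for 11 members (31.4%), against 30.6% of all genes. The direction of the differences inside the groups was uneven. Labelled knockout 1 was at least 2 times labelled knockout 2 for 12 members (34.3%), against 16.9% of all genes. The reverse held for 1 member, Mvd (2.86%), against 14.8%. Among the controls, the mean of controls 1 and 2 was at least 2 times control 3 for 12 members (34.3%), against 13.4% of all genes, and the reverse held for 0 members against 6.98%. These splits were noticed in the data and the values are descriptions, with no test.

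The same genes made up most of both counts. Both steps were at least 2-fold for 11 members, Hmgcs1, Sqle, Cyp51, Hsd17b7, Acaca, Fasn, Me1, Scd1, Scd2, Elovl6 and Fads2, which is 31.4% of those tested beside 9.16% of all genes. In the labelled knockouts the step ran from 2.07-fold for Cyp51 to 4.10-fold for Scd1. In the controls it ran from 2.04-fold for Fasn to 6.76-fold for Hsd17b7. Idi1 had the step only in the labelled knockouts (2.16-fold) and Fdft1 only in the controls (2.70-fold). Across the 35 members the log2 ratios of the 2 steps had a Pearson r of 0.70 and a Spearman rho of 0.69, beside 0.46 and 0.43 across all genes, which are not independent replicates. No regulator had a 2-fold step in either group.

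**Figure D3:**
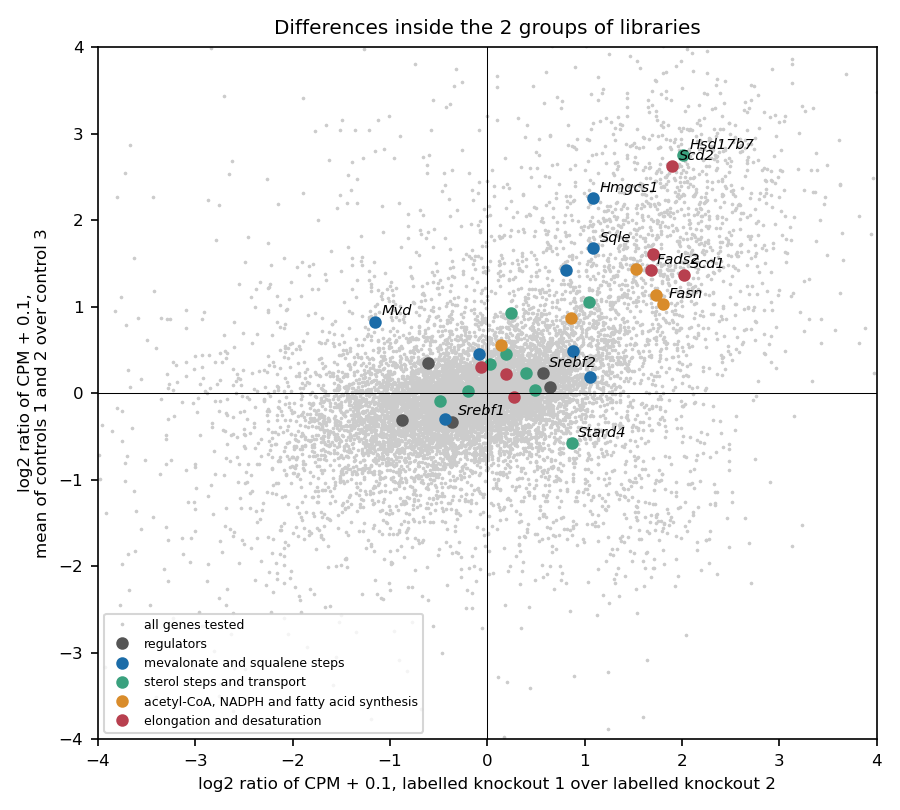
Each tested gene by the log2 ratio of labelled knockout 1 to labelled knockout 2 (x axis) and of the mean of controls 1 and 2 to control 3 (y axis), with 0.1 CPM added. Members in colour lie mostly in the upper right, with Hsd17b7 and Scd2 farthest out and Mvd farthest to the left, over all genes in grey.

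By library, labelled knockout 1 held the highest value of 12 members and control 2 of 11, while control 3 held the lowest of 16 and labelled knockout 2 of 11. Over all genes tested, the highest value fell in labelled knockout 1 for 30.3% and in control 2 for 13.1%, and the lowest in control 3 for 23.5% and in labelled knockout 2 for 17%. Together the 36 members summed to 3728 and 1855 CPM in the labelled knockouts and to 2748, 3150 and 1437 CPM in the controls. Scd2 alone gave the largest part of each of these sums except that of control 3, where Acly exceeded it.

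**Figure D4:**
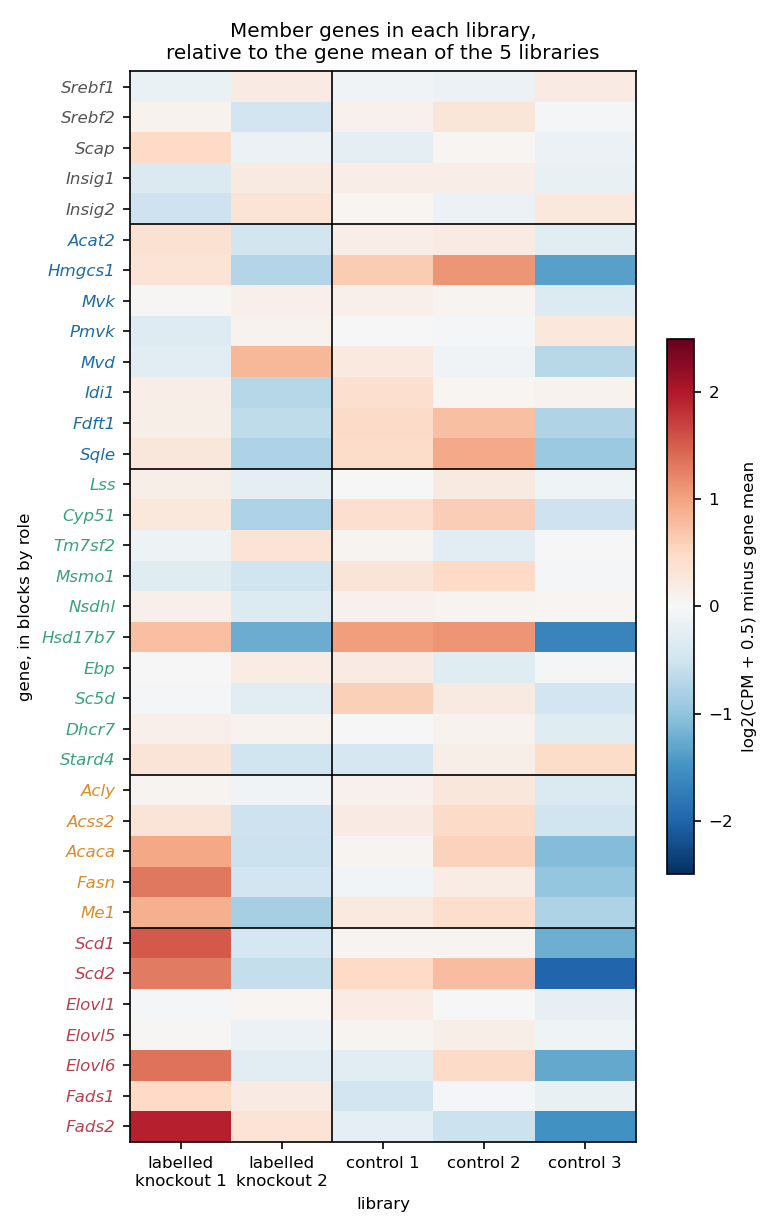
Level of each tested member in each library as log2(CPM + 0.5) less that gene's 5-library mean (colour), with genes in blocks by role. Labelled knockout 2 and control 3 are blue for most synthesis genes, and the 5 regulators in the top block are pale throughout.

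Markers of oligodendrocytes moved with this order of libraries. Of the 13 markers, 12 were highest in labelled knockout 1 and all 13 were lowest in control 3. Their mean log2 level, relative to each gene's mean, was 1.31 and -0.45 in labelled knockouts 1 and 2, and 0.64, 0.60 and -2.10 in controls 1, 2 and 3. The corresponding values were 0.99, -0.11, -0.02, 0.13 and -0.99 for elongation and desaturation, and 0.72, -0.49, 0.11, 0.40 and -0.74 for acetyl-CoA, NADPH and fatty acid synthesis. For the mevalonate and squalene steps they were 0.10, -0.30, 0.33, 0.38 and -0.51, and for the sterol steps 0.13, -0.33, 0.23, 0.24 and -0.27. The mean of the regulators stayed between -0.09 and 0.04, but its members moved in opposite directions. Their log2 ratios of labelled knockout 1 to labelled knockout 2 were 0.65 for Scap and 0.57 for Srebf2. Those of Srebf1, Insig1 and Insig2 were -0.36, -0.61 and -0.87. In such bulk samples, fewer cells of a type and less RNA per cell cannot be told apart.

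With the oligodendrocyte marker level as a covariate, a fit chosen after seeing the data, no member passed the test either, and 24 of all genes did. In that fit the log2 fold change of Hsd17b7 was -1.15 (adjusted p = 0.126), of Hmgcs1 -0.89, of Sqle -0.87, of Msmo1 -0.78, of Fdft1 -0.77 and of Cyp51 -0.73. The values of the fatty acid genes were smaller than without it, 0.38 for Fasn, 0.54 for Scd1, 0.51 for Elovl6 and -0.12 for Scd2, while Fads2 was at 1.75 and Fads1 at 0.56. Members with an unadjusted p under 0.05 numbered 7 in that fit and 3 without it, while the share of all genes went from 6.68% to 10.2%.

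Other marker lists also differed between libraries. Cycling cell markers summed to 1699 and 477 CPM in the labelled knockouts and to 381, 395 and 776 CPM in the controls, and 10 of 12 were highest in labelled knockout 1. Choroid plexus markers summed to 586 and 351 CPM beside 182, 214 and 61.3 CPM. Both labelled knockouts were above all controls for 9 of 10, the same direction as Fads1, Fads2 and Fads3, and these 9 passed with DESeq2. The exception, Enpp2, gave a large part of the sums, at 401 and 121 CPM beside 158, 206 and 33.2 CPM. Neuronal markers, of which 5 of 9 could be tested, summed to 161 and 40.9 CPM beside 71.7, 67.3 and 26.2 CPM. Astrocyte markers summed to 130 and 101 CPM beside 241, 119 and 51.3 CPM. Tubb3 gave the largest part of the neuronal sums except in control 3, at 125 and 28.9 CPM in the labelled knockouts. S100b gave the largest part of every astrocyte sum, at 102 and 70.5 CPM in the labelled knockouts. Gfap and Aldh1l1 reached 21.2 and 18.7 CPM in a control, whereas Aqp4, Slc1a2 and Gja1 lay between 0.216 and 2.51 CPM. The part of these other marker lists in the levels of the synthesis genes was not tested.

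**Figure D5:**
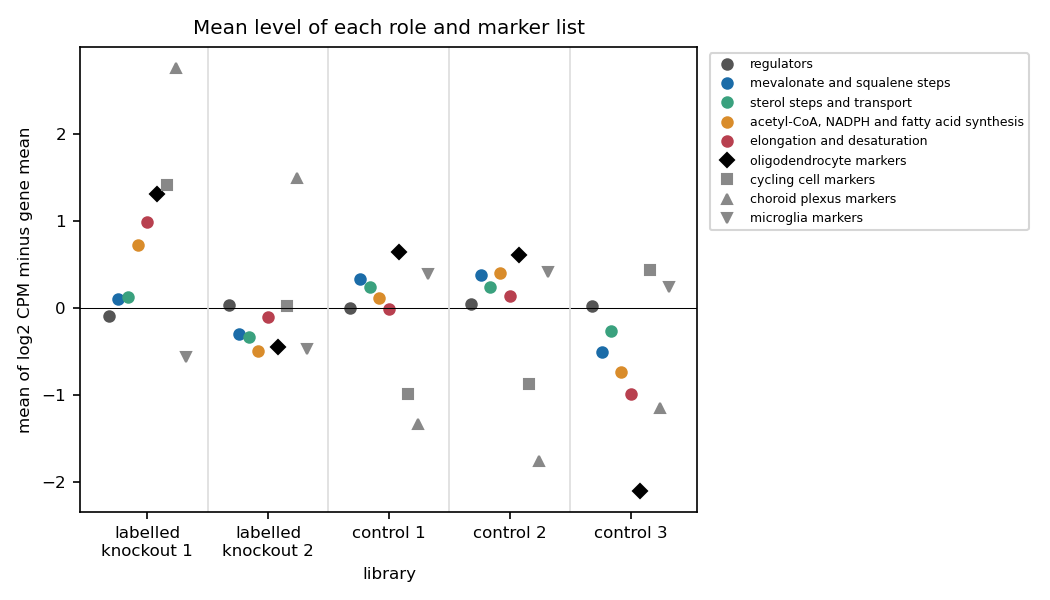
Mean of log2 CPM minus the gene mean for each role (coloured circles) and for 4 marker lists (black and grey symbols) in each library. Elongation and desaturation runs from 0.99 in labelled knockout 1 to -0.99 in control 3, and oligodendrocyte markers run from 1.31 to -2.10 in the same libraries. The mean of the regulators stays near 0, with members that move in opposite directions.

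Genes around the pathway were taken from 3 further lists. Of 14 genes for SREBP processing and its cofactors, 13 were tested and 0 passed with edgeR or with DESeq2, with 4 log2 fold changes above 0, 9 below and a median of -0.07. Both labelled knockouts were below all controls for 4 of the 13, beside 10.4% of all genes, and above for 0, beside 9.85%. The smallest p values were those of Nfyb, an NF-Y subunit, at a log2 fold change of -0.53 (SE 0.320), of Erlin1, which encodes an endoplasmic reticulum protein that binds the SREBP complex, at -0.39 (SE 0.296), and of the ubiquitin ligase gene Rnf139, at -0.27 (SE 0.206). Nfyb was at 6.72 and 10.1 CPM in the labelled knockouts and at 13.1, 12.3 and 11.2 CPM in the controls.

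The 10 genes of the isoprenoid branch, which draws on farnesyl diphosphate for dolichol, ubiquinone and prenylated proteins, had a median of -0.01 with 5 above 0, 5 below and 0 past the threshold with either tool. The smallest p values were those of Nus1, Coq2 and Pdss1, with log2 fold changes of -0.30, -0.23 and -0.28. Of 25 further genes of fatty acid synthesis, elongation and activation, 21 were tested, of which 0 passed with edgeR and 1, Acacb, passed with DESeq2. Their edgeR log2 fold changes were above 0 for 13 and below for 8, with a median of 0.06. Both labelled knockouts were above all controls for 6 of the 21 (28.6% beside 9.85% of all genes) and below for 1.

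Acacb, the mitochondrial acetyl-CoA carboxylase whose product restrains fatty acid oxidation, had the smallest p of that list. It was at 9.04 and 2.86 CPM in the labelled knockouts and at 0.503, 0.254 and 1.19 CPM in the controls (fitted log2 fold change 3.22, SE 0.785). The adjusted p was 0.413 with edgeR and 0.0216 with DESeq2, so its call depends on the tool. The paralogue Acaca, of the cytosolic pathway, overlapped between the groups, as given above. Acsl1, which activates long-chain fatty acids, was at 102 and 129 CPM beside 75.5, 87.3 and 63.8 CPM (fitted log2 fold change 0.61, SE 0.230, adjusted p = 0.695).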

How the data were processed

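RNA-seq counts of 5 microglial libraries were analysed as the authors deposited them: raw read counts per gene symbol. FastQC, STAR, HTSeq and build mm10 are named in the submitters' processing notes, without versions or strand setting. Genes passing edgeR's filterByExpr (12543) were tested with edgeR 4.0.16 (R 4.3.3; quasi-likelihood F test, robust, TMM, two-sided, Benjamini-Hochberg over all genes tested, threshold 0.05). CPM are counts over TMM-scaled totals, and log2 CPM used a prior count of 2. DESeq2 1.42.0, limma-voom 3.58.1, other scalings and filters, a replicate block and fits leaving out each library were alternatives. The steps were tested on simulated data. Libraries agreed less closely than sampling noise allows in every pair, so none was counted as a duplicate. Whether replicates came from separate animals is not given, so p-values may measure technical spread.

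The members and lists were chosen with earlier results of these data known. All members are accounted for. Values in every library are given for regulators, for members that do not overlap between groups, range at least 3-fold or are the most abundant per length of their role, and of each further list the 3 genes with the smallest unadjusted p are named. Lengths, overlaps and positions are GENCODE M21's (GRCm38), matched by symbol, and similar stretches are of at least 400 bases at 95% identity. Of the members, 14 overlap an exon of another gene and 9 have such a stretch elsewhere.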

Additional observations from a re-analysis of the deposited data

How the results depend on the processing

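No member passed the adjusted threshold under any alternative run. Over all genes, DESeq2 called 244, a replicate block 4 and the oligodendrocyte covariate, added after seeing the data, 24, against 0 with edgeR; limma-voom called 0, and edgeR 838 at an unadjusted p under 0.05. Of the members' log2 fold changes, those of Acat2 turned to 0.0025 with DESeq2, 0.00095 with DESeq2 size factors and 0.0117 with library totals, and that of Elovl1 to -0.0044 without a filter. The block pairs libraries by library number, and it rests on a shared number only. Across genes, deviations from the group means had r 0.15 for the pair numbered 1 and -0.56 for that numbered 2. Control 3 has no partner in that block, so its level does not enter the comparison of the groups there. The block and the covariate each leave fewer residual degrees of freedom than the 3 of the main fit. The title of control 3 also carries the replicate number 2, and its deviations had r 0.47 with those of labelled knockout 2 and -0.47 with those of labelled knockout 1. With 2 labelled knockouts, the deviations of 1 mirror those of the other. These r values are therefore not independent and cannot decide how libraries pair. A block pairing control 3 with labelled knockout 2 was not run. With the block by library number, which was run, Mvk was at -0.014, Stard4 at 0.046, Acaca at -0.11, Me1 at -0.31, Scd2 at -0.28 and Elovl1 at -0.085. With the covariate Insig2 was at 0.015, Acaca at -0.067, Me1 at -0.29, Scd2 at -0.12 and Elovl1 at -0.039.

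Leaving out 1 library, members whose groups do not overlap numbered 5 to 17, with 17 without either labelled knockout and 13 without control 3, against 4; fewer libraries overlap less by construction. With library totals they numbered 3, without Dhcr7. The median log2 fold change ran from -0.30 to 0.03. The ranges of members that turned sign were, for the regulators, -0.16 to 0.18 (Srebf1), -0.067 to 0.61 (Scap), -0.43 to 0.15 (Insig1) and -0.60 to 0.25 (Insig2). For the mevalonate and sterol genes they were -0.56 to 0.36 (Acat2), -0.011 to 0.21 (Mvk), -0.17 to 0.96 (Mvd), -0.32 to 0.11 (Lss), -1.06 to 0.022 (Cyp51), -0.062 to 0.41 (Tm7sf2), -0.46 to 0.066 (Nsdhl), -1.89 to 0.16 (Hsd17b7) and -0.68 to 0.23 (Stard4). For the fatty acid genes they were -0.20 to 0.10 (Acly), -0.69 to 0.21 (Acss2), -0.58 to 0.97 (Acaca), -0.30 to 1.53 (Fasn), -0.93 to 0.84 (Me1), -0.24 to 1.82 (Scd1), -0.80 to 1.13 (Scd2), -0.086 to 0.11 (Elovl1) and -0.11 to 1.65 (Elovl6). Where 1 labelled knockout remains it is assumed to vary like the controls. The cause of these turns was not tested. Fads2, Fads1, Dhcr7 and Msmo1 kept their direction under all alternatives run. Their groups do not overlap in the main scaling, so leaving out 1 library could hardly turn their sign. Srebf2, Hmgcs1, Pmvk, Idi1, Fdft1, Sqle, Ebp, Sc5d and Elovl5 also kept their direction throughout. The promoter share of the sterol element was 10.3% and 6.90% with the looser motifs. Fdps had 2 counts. Of its exons, 1124 bases overlap the protein-coding gene Gm43738 on the same strand, and 4 processed pseudogenes hold similar stretches. Whether its count reflects little RNA or reads not assigned to it was not tested.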

Other observations

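Lipid genes beyond synthesis included the phosphatidate phosphatases, which make diacylglycerol for triglyceride and phospholipid. Of 19 genes of triglyceride and phospholipid synthesis, 18 were tested, of which 0 passed the adjusted threshold with edgeR and 1, Lpin1, with DESeq2, with 10 log2 fold changes above 0, 8 below and a median of 0.04. Lpin1 was at 34.3 and 33.2 CPM in the labelled knockouts and at 18.2, 18.6 and 19.1 CPM in the controls, with values close together inside each group and no overlap (fitted log2 fold change 0.86, SE 0.207). Its adjusted p was 0.403 with edgeR and 0.0234 with DESeq2. Its paralogue Lpin2 lay the other way, at 110 and 140 CPM beside 195, 199 and 263 CPM (fitted log2 fold change -0.81, SE 0.249, adjusted p = 0.575). Pcyt1a, the rate-limiting enzyme of phosphatidylcholine synthesis, was at 131 and 125 CPM beside 72.7, 96.7 and 99.3 CPM (fitted log2 fold change 0.52, SE 0.218, adjusted p = 0.768). For all 3 genes control 3 was the highest control, whereas for Scd2 and Fasn it was the lowest.

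Of 18 genes of mitochondrial fatty acid oxidation, 17 were tested and 0 passed with either tool, with 12 above 0, 5 below and a median of 0.14. Slc25a20, the carnitine-acylcarnitine carrier of the inner mitochondrial membrane, was at 16.5 and 20.9 CPM in the labelled knockouts and at 33.6, 32.3 and 34.6 CPM in the controls (fitted log2 fold change -0.84, SE 0.228, adjusted p = 0.50). Next in p were Cpt2 and Hadh, with log2 fold changes of 0.29 (SE 0.229) and 0.25 (SE 0.280). Of 14 genes of sterol export, storage and the LXR pathway, all were tested and 0 passed with either tool, with 5 above 0, 9 below and a median of -0.14. Nr1h3, which encodes the sterol-sensing receptor LXR alpha, was at 8.74 and 14.7 CPM beside 18.2, 17.7 and 57.7 CPM, so that control 3 stood far above the rest (fitted log2 fold change -1.41, SE 0.641, adjusted p = 0.812). Lpcat3 and Mylip, both LXR targets, lay at fitted log2 fold changes of -0.29 (SE 0.208) and -0.28 (SE 0.322).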
